A study of Mus musculus with 14 samples.

Results

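The replication-dependent histone genes were examined in 14 arrays of mouse neural stem cells with and without Cic, grown with or without epidermal growth factor (EGF). Members were the genes whose symbol on the array begins with Hist1h, Hist2h, Hist3h or Hist4h. The array named 69 such genes on 134 probesets, a probeset being a group of short probes read out as 1 value. Of these probesets, 65 name a single gene and give values for 30 members. The other 69 name between 2 and 13 histone genes each and were left out of the gene values, so that 39 of the 69 genes have no value of their own. The 30 members stand among 23152 genes measured in this way. They comprise 6 genes of class H1, 8 of H2A, 8 of H2B and 8 of H4, whereas all 12 genes of class H3 are named on shared probesets alone.

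Histones package DNA into nucleosomes. The core histones H2A, H2B, H3 and H4 form the particle around which DNA winds, and the linker histone H1 binds where DNA enters and leaves it. The genes of the Hist clusters are transcribed mainly in S phase, when new DNA has to be packaged. Their short mRNAs usually carry no poly(A) tail and end instead in a stem-loop that is bound by the stem-loop binding protein. The clusters lie on mouse chromosomes 13 (Hist1, 23 of the members), 3 (Hist2, 5 members), 11 (Hist3, 1 member) and 6 (Hist4, 1 member). Many copies within a class are nearly identical in sequence.

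The cultures were set up from the subventricular zone, the germinal layer along the lateral ventricles, each from a separate mouse at postnatal day 4. All 7 cultures, called clones here as in the labels, were treated with an adenovirus that delivers Cre recombinase. The groups were Cic-/- cells with EGF (clones 5 to 7, n = 3), Cic+/+ cells with EGF (clones 1 to 4, n = 4), Cic-/- cells without EGF (clones 5 to 7, n = 3) and Cic+/+ cells without EGF (clones 1 to 4, n = 4). The labels give the Cic-/- cells as conditional knockout (Cicflox/flox) and the others as wild type. Both media were NeuroCult proliferation medium, with EGF added or left out for 24 h. The product of Cic is capicua, a transcriptional repressor whose hold on its targets is lifted by ERK signalling, the pathway that EGF activates.

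The Cic level checked the genotype labels, at 7.04 to 7.67 in the 6 Cic-/- arrays against 9.18 to 9.69 in the 8 Cic+/+ arrays on the log2 scale. Pairs of arrays correlated between 0.959 and 0.988 over all genes, and the number of arrays limits the precision. Of 10 neural stem cell markers, 9 lay above the limit for dim genes in every array, as did all 6 neuron markers and all 4 astrocyte markers. The astrocyte median was 8.63 to 10.39 over the arrays, and the median of the 3 endothelial markers stayed at or below 5.15. Clone 4 differed from the others in Xist, at 3.83 and 4.73 against 11.96 to 12.57. Levels are log2 values and a change is a difference of log2 group means ± SE from limma. The test was passed where the adjusted p was under 0.05. The 21 members above the dim limit of 4.40 were tested among 17364 genes.

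In cells with EGF, 1 of the 21 histone genes passed the test between genotypes, and it was lower in Cic-/- cells. That gene was Hist1h2bb, which encodes a histone H2B (H2bc3 in current nomenclature) and fell by 1.62 ± 0.28 on the log2 scale, a 3.07-fold difference (adjusted p = 0.0261, limma). A share of 0.242% of all genes tested fell in this comparison and 0.317% passed in either direction. At an unadjusted p under 0.05 there were 8 lower members and 1 higher member of 21, against 5.52% and 5.1% of all genes. The median member change was -0.24, while the median of all genes was 0.02. In 7 of the 21 the groups did not overlap and Cic-/- was lower, a pattern shown by 5.91% of all genes. No member had separate groups with Cic-/- higher, against 5.81% of all genes.

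Hist1h2bb had log2 levels of 8.29, 8.50 and 7.95 in Cic-/- clones 5 to 7 with EGF, against 9.51, 10.17, 9.96 and 9.81 in Cic+/+ clones 1 to 4 with EGF. The groups were more than a full log2 unit apart, with means of 8.25 ± 0.28 (SD, n = 3) in Cic-/- and 9.86 ± 0.28 (SD, n = 4) in Cic+/+. Its value is in every array that of the middle one of 3 probesets. A second probeset was lower in Cic-/- by 1.40 ± 0.31 and did not pass over all probesets. The dimmest went the other way and was higher in Cic-/- by 0.27 ± 0.17, with means of 7.21 ± 0.15 (SD, n = 3) in Cic-/- and 6.93 ± 0.10 (SD, n = 4) in Cic+/+, and it did not pass either (adjusted p = 0.678, limma). The call was lost when clone 2, 3, 5 or 7 was left out, with changes of -1.47 to -1.64 and adjusted p values of 0.0585 to 0.122. In the 3 fits without clone 1, 4 or 6 it passed, and the change was negative in all 7. Without clone 4, which stood apart in Xist, it was -1.64 (adjusted p = 0.0216, limma).

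Among the linker histones, Hist1h1b (H1f5), an H1 subtype of dividing cells, was the member with the second lowest change. It had levels of 7.48, 8.73 and 8.53 in Cic-/- with EGF against 9.46, 10.32, 9.12 and 9.63 in Cic+/+ with EGF. The groups did not overlap, and clone 5 was the lowest array. The change was -1.39 ± 0.35 with an adjusted p of 0.132 in limma, so it did not pass. Both of its probesets were lower in Cic-/-, by 1.12 ± 0.43 and 1.65 ± 0.36. Hist1h1c (H1f2), an H1 subtype found in many tissues, went the other way, at 11.60, 10.05 and 11.23 in Cic-/- against 10.50, 9.99, 10.06 and 10.26 in Cic+/+. Clone 6 lay within the Cic+/+ range. The change of 0.76 ± 0.28 did not pass (adjusted p = 0.332), and without clone 6 it was 1.21 and passed (adjusted p = 0.0194, limma). Hist1h1d and Hist1h1e differed by -0.05 ± 0.24 and -0.04 ± 0.19.

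The sign for Hist1h1c depended on the probeset. Its 3 probesets changed by -0.72 ± 0.34, -0.48 ± 0.22 and 1.01 ± 0.38 between Cic-/- and Cic+/+ with EGF. The gene value, their median, is that of the third in every array except the 2 of clone 7. With the mean of the 3 probesets the change was -0.062 and with the brightest it was -0.48. Hist1h1e (H1f4) was split likewise, with changes of 0.57 ± 0.40, 0.66 ± 0.31, -0.74 ± 0.31 and -0.88 ± 0.23 in its 4 probesets, so that its gene value near 0 averages over probesets that disagree. No single probeset of either gene passed over the 202313 probesets tested. Of the 12 members with at least 2 tested probesets, 5 held both signs in this comparison. In 2 of them, Hist1h1c and Hist1h1e, probesets of both signs had an unadjusted p under 0.05. The share of all genes with both signs was not computed.

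**Figure D1:**
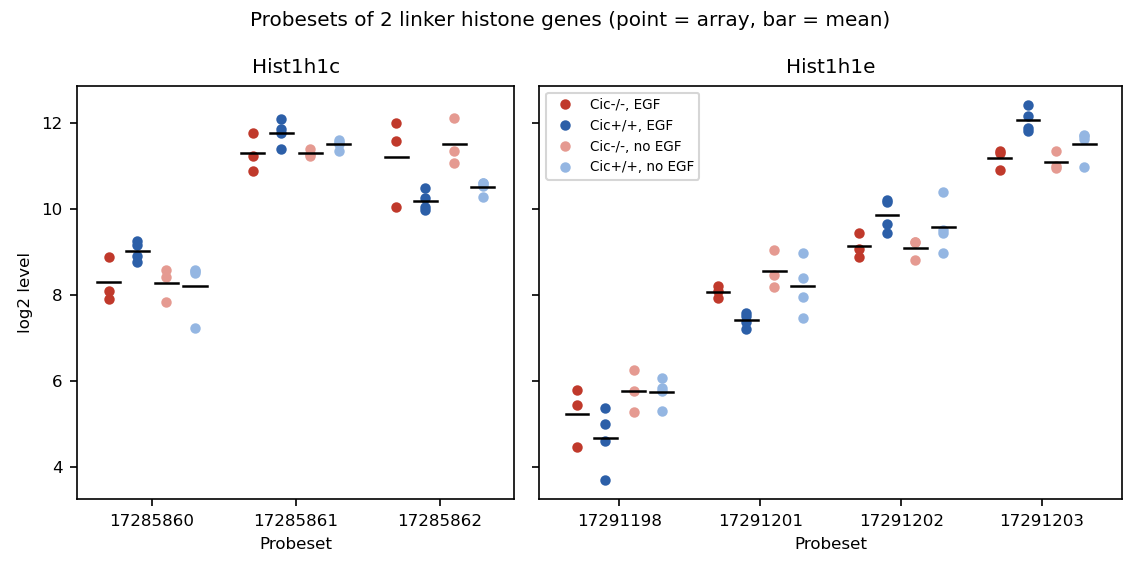
Log2 level of each probeset of Hist1h1c (left) and Hist1h1e (right) in the 14 arrays; probeset numbers run along the horizontal axis, points are arrays coloured by group and bars are group means. With EGF, probeset 17285862 of Hist1h1c was higher in Cic-/- by 1.01 while probeset 17285861 was lower by 0.48, and probeset 17291203 of Hist1h1e was lower by 0.88 while 17291201 was higher by 0.66.

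Of the 7 tested H2A genes, 4 were lower in Cic-/- with EGF at an unadjusted p under 0.05, against 5.52% of all genes, and none passed after adjustment. Hist1h2af (H2ac10) had levels of 10.08, 10.75 and 10.24 in Cic-/- against 11.01, 11.63, 11.02 and 11.50 in Cic+/+, and the groups did not overlap. Its change was -0.93 ± 0.26 (adjusted p = 0.170). Hist1h2ak changed by -0.93 ± 0.28, Hist2h2ab by -0.74 ± 0.23 and Hist2h2ac by -0.54 ± 0.22. The Hist2h2ac value, the median of 3 probesets, did not come from the same probeset in all these arrays. In Cic-/- it was that of a probeset at 5.30, 5.53 and 5.69, which in Cic+/+ was at 5.47, 5.56, 5.84 and 5.28. In Cic+/+ clones 1, 2 and 4 it came from another. In its other probesets Cic-/- was lower and the groups did not overlap. The Hist2h2ab and Hist2h2ac genes lie in the cluster on chromosome 3. The other 3 had positive changes of 0.15 to 0.29. They were Hist3h2a, Hist1h2aa, whose product is known from the testis, and Hist1h2al, which RefSeq lists as a transcribed pseudogene.

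Of the 6 tested H2B genes, 3 had an unadjusted p under 0.05 and all 3 were lower in Cic-/- with EGF, against 5.52% of all genes. Besides Hist1h2bb these were Hist1h2bk (H2bc12) and Hist1h2bh (H2bc9). Hist1h2bk had levels of 7.04, 7.30 and 6.97 in Cic-/- against 7.96, 8.39, 8.15 and 8.11 in Cic+/+, with no overlap, and changed by -1.05 ± 0.29 (adjusted p = 0.170). When only the 7 arrays with EGF were fitted it passed (adjusted p = 0.0439, limma). Its probesets differed widely, at -1.92 ± 0.50 and -0.17 ± 0.22. Hist1h2bh had levels of 4.82, 4.38 and 4.59 in Cic-/- against 5.79, 6.05, 5.31 and 4.80 in Cic+/+, where clone 4 lay within the Cic-/- range. It changed by -0.89 ± 0.29 (adjusted p = 0.267). Hist2h2be and Hist2h2bb, a pair from chromosome 3, changed by -0.38 ± 0.21 and 0.26 ± 0.28, and Hist1h2bm by 0.11 ± 0.17. The 5 probesets of Hist2h2bb differed in sign, and its gene value follows dimmer ones. The brightest was lower in Cic-/-, at 9.06, 9.40 and 9.57 against 9.99, 10.66, 9.92 and 10.67 in Cic+/+, with no overlap.

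None of the 4 tested H4 genes had an unadjusted p under 0.05. Hist1h4k had levels of 12.62, 12.75 and 12.56 in Cic-/- with EGF against 12.76, 12.99, 12.84 and 13.00 in Cic+/+ with EGF. The groups just failed to overlap and differed by -0.26 ± 0.12 (adjusted p = 0.486), with a 95% interval of -0.52 to 0.01. These values lie near the top of the scale of the array, whose highest gene value was 13.62. Hist4h4, Hist1h4i and Hist2h4 changed by -0.24 ± 0.15, 0.08 ± 0.38 and 0.20 ± 0.26.

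**Figure D2:**
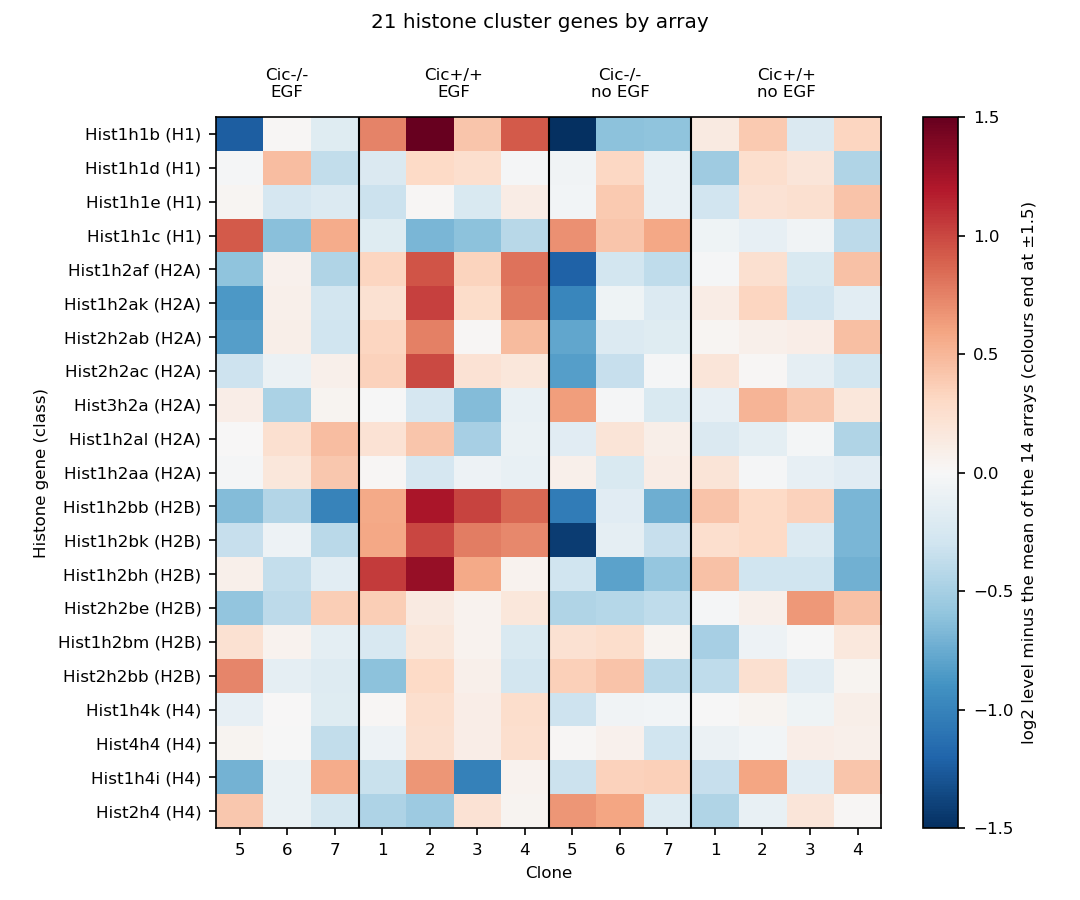
Log2 level of the 21 tested histone genes (rows, by class) in each of the 14 arrays (columns, by group and clone), as the difference from the gene's mean over all arrays; blue is below and red above that mean. Hist1h1b, Hist1h2bb and Hist1h2bk are blue in most Cic-/- columns and red in the Cic+/+ columns with EGF, while the H4 rows stay pale except Hist1h4i and Hist2h4.

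The DNA before the gene start is shown for 4 of the 8 members that were lower in Cic-/- with EGF at an unadjusted p under 0.05, with Hist1h1c beside them as the gene with the highest change. Each stretch is the 150 bases upstream of the RefSeq gene start in GRCm38.p6, on the strand of the gene. Capitals mark CCAAT, the box read by the factor NF-Y, and the octamer ATTTGCAT read by the factor Oct1, each on either strand. They also mark AAACACAA, an element described in H1 promoters, on either strand, and the TATA box TATAAA on the strand of the gene. None of these matches overlapped another.
Hist1h2bb (chr13:23746584-23746733, plus strand): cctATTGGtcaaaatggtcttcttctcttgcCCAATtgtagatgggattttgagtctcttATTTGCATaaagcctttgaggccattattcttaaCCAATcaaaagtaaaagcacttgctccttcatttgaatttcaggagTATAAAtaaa
Hist1h2bk (chr13:22035671-22035820, plus strand): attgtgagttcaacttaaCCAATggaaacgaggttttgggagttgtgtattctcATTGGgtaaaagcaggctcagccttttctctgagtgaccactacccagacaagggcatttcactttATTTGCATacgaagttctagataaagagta
Hist1h2bh (chr13:23543445-23543594, minus strand): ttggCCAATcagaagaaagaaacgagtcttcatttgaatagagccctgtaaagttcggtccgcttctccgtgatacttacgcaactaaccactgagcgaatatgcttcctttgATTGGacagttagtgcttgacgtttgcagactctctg
Hist1h1b (chr13:21780626-21780775, minus strand): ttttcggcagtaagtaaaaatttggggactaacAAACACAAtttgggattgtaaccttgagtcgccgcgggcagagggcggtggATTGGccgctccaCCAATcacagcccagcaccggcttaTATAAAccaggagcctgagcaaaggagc
Hist1h1c (chr13:23738657-23738806, plus strand): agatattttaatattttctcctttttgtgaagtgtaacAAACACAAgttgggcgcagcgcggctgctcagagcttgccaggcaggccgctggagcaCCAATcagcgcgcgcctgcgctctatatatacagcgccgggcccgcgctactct
The octamer lies in the windows of Hist1h2bb and Hist1h2bk, and AAACACAA in those of Hist1h1b and Hist1h1c.

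Over the 250 bases upstream, 61 of the 69 genes could be searched, 27 of them members. CCAAT was present in 50 of the 61 (82.0%), against 34.5% of 27025 mouse promoters of the same length. The octamer was found in 13 of the 61, of which 7 were H2A and 6 H2B genes, against 1.61% of all promoters. AAACACAA was found in 6 of the 61, among them 4 of the 6 H1 genes, against 1.67%, and TATAAA in 24 of the 61 against 8.12%. The octamers TGAATGAA and TCAATGAA, which capicua is known to bind, were not in any of the 61 windows, against 1.71% of all promoters. A match or its lack describes these letters in these windows and says nothing of binding.

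The 69 shared probesets bear on the genes without a value of their own. After 9 identical copies were counted once, 60 remained, of which 37 lay above the probeset dim limit of 4.64. In Cic-/- with EGF none passed in limma over all probesets, while 0.14% of all probesets did. At an unadjusted p under 0.05, 17 of the 37 were lower and 0 were higher, against 4.98% and 4.31% of all probesets. Their median change was -0.40 and that of all probesets 0.01. The probeset with the smallest p names 10 H2A genes of the Hist1 cluster. It had levels of 9.83, 11.03 and 10.36 in Cic-/- against 11.40, 12.39, 11.86 and 12.06 in Cic+/+, and changed by -1.52 ± 0.31 (adjusted p = 0.103). A probeset that names 13 H4 genes had 4.61, 4.70 and 3.44 in Cic-/- against 5.98, 6.21, 5.40 and 5.99 in Cic+/+, a change of -1.64 ± 0.34 (adjusted p = 0.111). In both the groups did not overlap. The H4 probeset lay under the probeset dim limit of 4.64 in Cic-/- clones 5 and 7 and passed that limit through its Cic+/+ levels. Another tested probeset that names these 13 genes changed by -0.18, with groups that overlapped.

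Histone H3 could be read in this way alone. Of 10 distinct H3 probesets tested, 3 were lower at an unadjusted p under 0.05, against 4.98% of all probesets, and the median change was -0.19. The H3 probeset with the lowest change names Hist1h3a, Hist1h3g, Hist1h3h and Hist1h3i. It had levels of 11.29, 12.16 and 11.77 in Cic-/- against 12.51, 12.93, 12.49 and 12.62 in Cic+/+, with no overlap, and changed by -0.90 ± 0.26 (adjusted p = 0.281). The only shared probesets with H1 content, 2 that name Hist1h1e beside 3 H2B genes, had positive changes of 0.57 ± 0.41 and 0.65 ± 0.43.

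Without EGF, none of the 21 members passed the genotype test in limma, while 0.553% of all genes did. At an unadjusted p under 0.05, 5 were lower and 1 was higher in Cic-/-, against 5.85% and 4.96% of all genes. The groups did not overlap in 4 members with Cic-/- lower and in 1 with Cic-/- higher, against 5.18% and 4.2% of all genes. The median member change was -0.11 and that of all genes -0.003. The median of 4 oligodendrocyte markers was 5.05 to 5.66 in Cic-/- without EGF against 7.05 to 8.07 in Cic+/+ without EGF, and its part in these differences was not tested. Hist1h1b had the lowest change, at 7.02, 8.09 and 8.11 in Cic-/- against 8.85, 9.10, 8.50 and 9.04 in Cic+/+. This difference of -1.13 ± 0.35 (adjusted p = 0.208) separated the groups. Hist1h1c was higher in every Cic-/- array, at 11.36, 11.09 and 11.25 against 10.61, 10.55, 10.62 and 10.28 in Cic+/+, and changed by 0.72 ± 0.28 (adjusted p = 0.343). Its 3 probesets changed by 1.01 ± 0.38, 0.063 ± 0.34 and -0.20 ± 0.22.

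Hist1h2bb had 7.90, 8.77 and 8.22 in Cic-/- without EGF against 9.37, 9.25, 9.29 and 8.25 in Cic+/+ without EGF. Clone 4 lay among the Cic-/- arrays, and the change was -0.74 ± 0.28 (adjusted p = 0.329). This overlap depended on the probeset. The brightest had 10.44, 10.66 and 9.33 in Cic-/- against 10.92, 10.90, 10.97 and 11.55 in Cic+/+, with no overlap. In the dimmest, clone 4 at 6.43 lay below every Cic-/- array. Hist1h2af had 9.48, 10.41 and 10.31 in Cic-/- against 10.67, 10.93, 10.46 and 11.13 in Cic+/+, with no overlap and a change of -0.73 ± 0.26. Hist2h2be had 6.22, 6.24 and 6.29 in Cic-/- against 6.65, 6.74, 7.32 and 7.10 in Cic+/+, a change of -0.70 ± 0.21 (adjusted p = 0.207). With the mean of its probesets in place of the median it changed by -0.83 and passed (adjusted p = 0.0349, limma). Its human counterpart is known to make polyadenylated mRNA as well, as are those of Hist1h1c and of Hist1h2bk, which changed by -0.55 ± 0.29 without EGF. Hist2h4, with the second highest change, differed by 0.44 ± 0.26, and Hist1h4k by -0.15 ± 0.12. Of the 37 shared probesets, none passed (0.265% of all probesets did), 10 were lower at an unadjusted p under 0.05 against 5.07%, and the median change was -0.23.

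**Figure D3:**
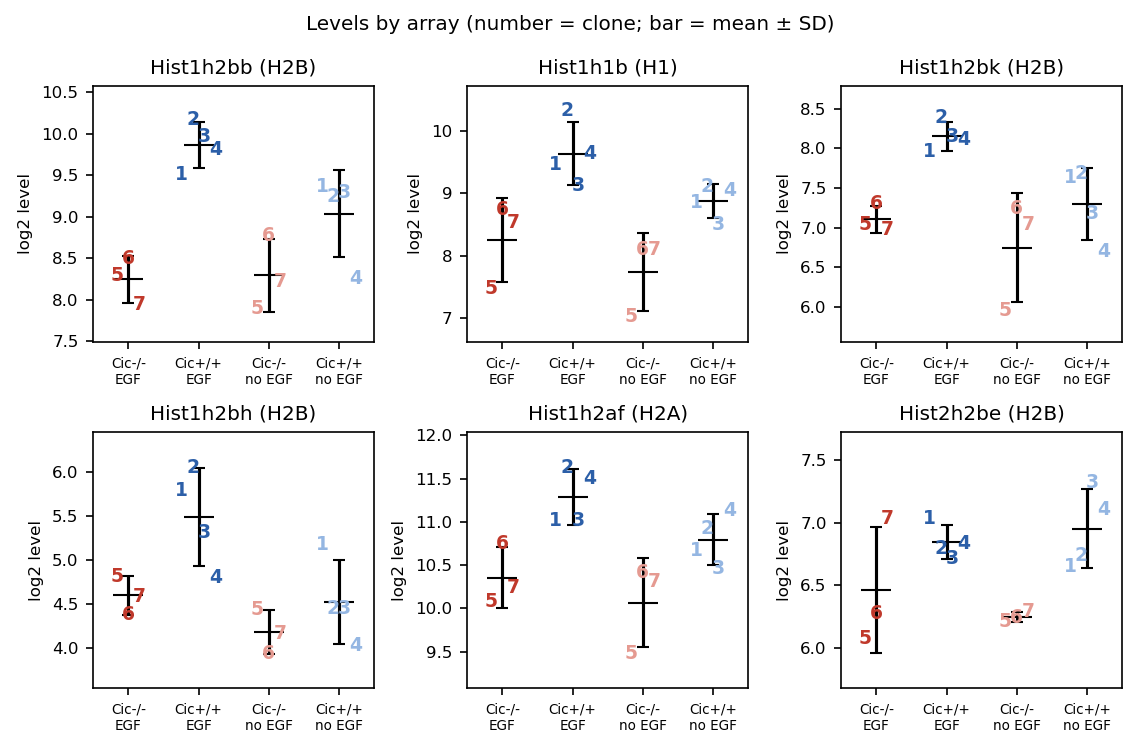
Log2 level of 6 histone genes in each array by group; each number is the clone, the bar the group mean and the whisker ± SD (n = 3 in Cic-/- groups, n = 4 in Cic+/+ groups). With EGF the Cic-/- clones lie below every Cic+/+ clone for Hist1h2bb, Hist1h1b, Hist1h2bk and Hist1h2af, and without EGF clone 4 lies within the Cic-/- range for Hist1h2bb, and clones 3 and 4 for Hist1h2bk.

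The EGF effect was read in the same clones with and without EGF. In Cic-/- cells none of the 21 members passed in limma and none had an unadjusted p under 0.05, against 0.19% and 9.8% of all genes. The members with the highest changes were Hist1h1b at 0.51 ± 0.37 and Hist1h2bh at 0.41 ± 0.31, and the lowest were Hist2h4 at -0.34 ± 0.27 and Hist1h1c at -0.27 ± 0.29. Hist1h2bb did not move in 1 direction, with EGF-minus-no-EGF differences of 0.40, -0.27 and -0.27 in clones 5 to 7. Hist1h4k, at 0.04 ± 0.13, and Hist1h2af, at 0.29 ± 0.28, did not pass either.

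In Cic+/+ cells none of the 21 passed in limma without a clone term, when 0.898% of all genes did, and 6 were higher and 1 lower with EGF at an unadjusted p under 0.05, against 5.23% and 7.23% of all genes. The arrays are paired by clone, and with the clone as a random block 3 members rose, against 1.97% of all genes. Hist1h2bh had levels of 5.79, 6.05, 5.31 and 4.80 with EGF in clones 1 to 4 against 5.18, 4.44, 4.44 and 4.02 without EGF. It was higher with EGF in each clone, by 0.61, 1.60, 0.86 and 0.77, and rose by 0.96 ± 0.21 in the blocked fit (adjusted p = 0.0169, limma). Hist1h2bb rose by 0.83 ± 0.21 and Hist1h2bk by 0.85 ± 0.22 in that fit (adjusted p = 0.0395 for each). The gene values of both were higher with EGF in 4 of 4 clones, and Hist1h2bb ranged from 0.14 in clone 1 to 1.56 in clone 4. Their probesets did not all follow. The brightest of Hist1h2bb was higher with EGF in each clone, in clone 4 at 11.72 against 11.55. Its dimmest was lower with EGF in clones 2 and 3. A probeset of Hist1h2bk was lower with EGF in clone 1 (6.36 against 6.43). With the clone as a fixed term 5 members rose, against 2.3% of all genes, the further ones being Hist1h1b at 0.76 ± 0.14 (adjusted p = 0.0102) and Hist1h2ak at 0.58 ± 0.14 (adjusted p = 0.0425).

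Across the 3 Cic-/- clones, 4 of the 21 members were higher with EGF in all and 2 were lower in all, against 18.2% and 18.6% of all genes. In the 4 Cic+/+ clones, 9 were higher in all and 2 were lower in all, against 13.8% and 15.1% of all genes. Hist1h1b, Hist1h2bh and Hist2h2ac were higher with EGF in all 7 clones, as were 6.04% of all genes. For Hist2h2ac the median took different probesets in the arrays of some clones. A probeset of Hist2h2ac was lower with EGF in clone 1 (5.47 against 5.80) and clone 5 (5.30 against 5.51). The other probesets of this gene were higher with EGF in all 7 clones. Hist1h1b differed by 0.46, 0.64 and 0.43 in clones 5 to 7, against 0.61, 1.22, 0.63 and 0.59 in clones 1 to 4. In clone 4 its probesets disagreed, at 9.61 with EGF against 9.78 without it, and at 9.65 against 8.30. Both probesets were higher with EGF in the other clones. In Cic+/+ the groups with and without EGF did not overlap in 3 members, Hist1h1b, Hist1h2bb and Hist1h2bk, each higher with EGF, against 3.44% of all genes. In each of these members a probeset taken alone had groups that overlapped. The lowest EGF effects in Cic+/+ were those of Hist3h2a, at -0.50 ± 0.22, and of Hist1h1c, at -0.31 ± 0.25, and neither passed with or without the clone in the fit. The median of 4 oligodendrocyte markers was 5.28 to 5.85 in Cic+/+ with EGF against 7.05 to 8.07 in Cic+/+ without EGF, and its part in these differences was not tested. Of the 37 shared probesets none passed in Cic+/+ in limma, against 0.223% of all probesets. At an unadjusted p under 0.05, 8 were higher and 2 lower with EGF, against 4.48% and 5.64% of all probesets.

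**Figure D4:**
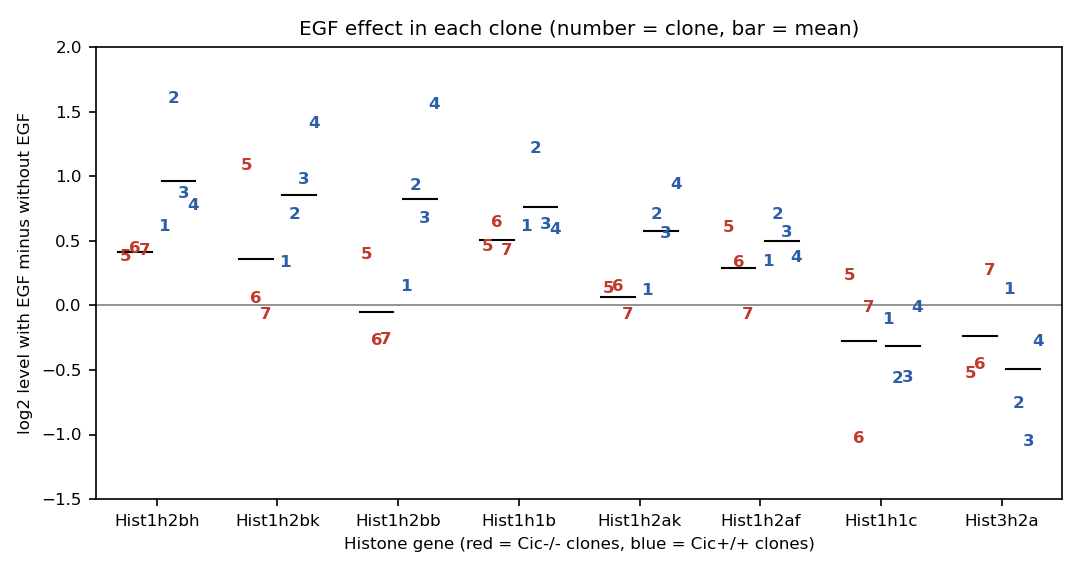
EGF effect in each clone for 8 histone genes, as the log2 level with EGF minus that without EGF; numbers are clones (red Cic-/-, left of each pair; blue Cic+/+, right) and bars are means. All 7 clones lie above 0 for Hist1h2bh and Hist1h1b, and clones 6 and 7 lie below 0 for Hist1h2bb, where the 4 Cic+/+ clones range from 0.14 to 1.56.

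The EGF effect was compared between genotypes by the interaction, the effect in Cic-/- minus that in Cic+/+. None of the 21 members passed in limma, with or without the clone block, and 0.00576% of all genes did without it. Hist1h2bb had the lowest value, -0.87 ± 0.39, with an unadjusted p of 0.0432 and an adjusted p of 1.00, and it was the only member under an unadjusted p of 0.05, while 1.08% of all genes were under it with a negative value. Hist1h2bh followed at -0.55 ± 0.42, with a 95% interval of -1.44 to 0.34. The highest were Hist2h2be at 0.32 ± 0.30 and Hist1h2aa at 0.27 ± 0.21. A difference in EGF response between the genotypes was thus not shown for any member.

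**Figure D5:**
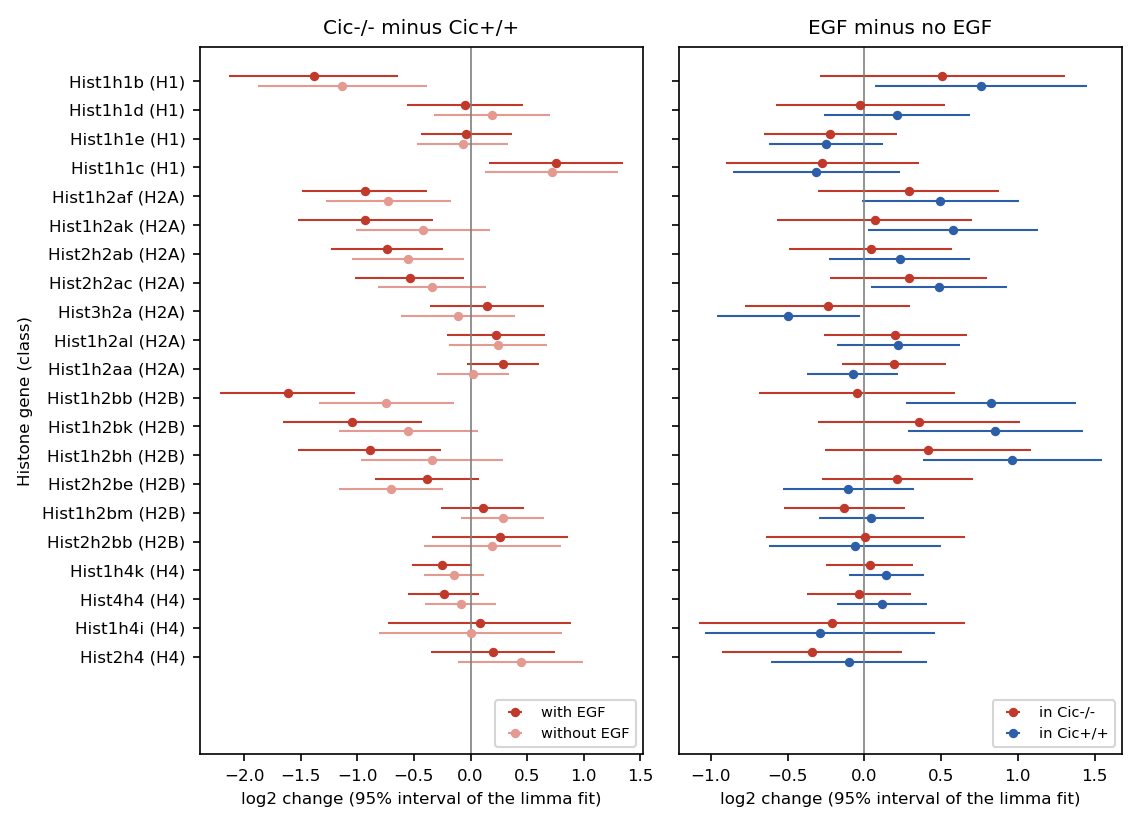
Log2 change of the 21 tested histone genes with the 95% interval of the limma fit; left, Cic-/- minus Cic+/+ with EGF (dark) and without EGF (pale); right, EGF minus no EGF in Cic-/- (red) and in Cic+/+ (blue). Hist1h2bb with EGF, at -1.62, is the lowest point on the left, and on the right the Cic+/+ points of Hist1h2bh, Hist1h2bk and Hist1h2bb are the highest, at 0.83 to 0.96.

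The Cic-/- clones were not alike. Set against the Cic+/+ mean of each gene, the median over the 21 members with EGF was -0.28 in clone 5, -0.15 in clone 6 and -0.34 in clone 7, with 14, 15 and 15 members below the Cic+/+ mean. Without EGF the medians were -0.19, -0.06 and -0.26. The 8 members lower in Cic-/- with EGF at an unadjusted p under 0.05 had no common lowest clone. Clone 7 was the lowest of the 3 in Hist1h2bb and Hist1h2bk, and clone 6 in Hist1h2bh. Clone 5 was the lowest of the 3 with EGF in Hist1h1b, Hist1h2af, Hist1h2ak, Hist2h2ab and Hist2h2ac. It also held the lowest median of the 30 DNA replication genes with EGF, at 6.77 beside 8.17 in clone 6 and 7.93 in clone 7. The Cic+/+ clones were at 7.72 to 8.63, so of the Cic-/- clones clone 5 alone lay below the Cic+/+ range of this median. For the 25 mitosis genes all Cic-/- clones lay below that range. Their medians with EGF were 7.59, 8.70 and 8.82 in clones 5, 6 and 7, against 8.86 to 9.58 in Cic+/+. Arrays measure RNA of a whole culture, so fewer cells in S phase and less histone mRNA per cell cannot be told apart.

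Genes that act with the histones were read from lists chosen by function. In Cic-/- with EGF, all 30 DNA replication genes had negative changes, 11 of them at an unadjusted p under 0.05 against 5.52% of all genes, and none passed. The groups did not overlap in 2 of the 30, against 5.91% of all genes. Their median was -0.72, against -0.24 in the 21 histone genes and 0.02 in all genes. All 25 mitosis genes had negative changes with a median of -0.88. At an unadjusted p under 0.05, 11 of the 25 were lower, and in 12 the groups did not overlap, against 5.52% and 5.91% of all genes. The 1 mitosis gene that passed was Nusap1, which binds spindle microtubules and fell by 1.80 ± 0.29 (adjusted p = 0.0145, limma). Of all genes tested, 0.242% passed as lower. Of 17 histone chaperones, 1 passed, and the median was -0.27. It was Hjurp, which loads the centromeric H3 variant Cenpa and fell by 0.99 ± 0.19 (adjusted p = 0.0464, limma). At an unadjusted p under 0.05, 3 of the 17 were lower, and in 2 the groups did not overlap. The 9 measured genes listed as replication-independent histone variants, such as H2afz, all had negative changes with a median of -0.37 and none passed. At an unadjusted p under 0.05, 4 of the 9 were lower, and in 3 the groups did not overlap, against 5.52% and 5.91% of all genes. Of 14 genes of histone mRNA synthesis and 3′ end processing none passed and the median was -0.15. Slbp, the stem-loop binding protein, was among them. Of 6 decay genes none passed and the median was 0.02, with Eri1, an exonuclease that trims the stem-loop, at 0.58 ± 0.20 (adjusted p = 0.294). Without EGF no gene of these 6 lists passed the genotype test in limma, while 3 of the 30 DNA replication genes, 3 of the 25 mitosis genes, 1 of the 9 variants and 1 of the 14 synthesis genes were lower at an unadjusted p under 0.05, against 5.85% of all genes. Eri1, which is on both the synthesis and the decay list, was the 1 gene of the 6 lists that was higher at that level, at 0.66 ± 0.20 (adjusted p = 0.206), against 4.96% of all genes.

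In Cic+/+ the EGF effect was positive in 30 of 30 DNA replication genes, with a median of 0.46, and in 24 of 25 mitosis genes, with a median of 0.39, and none of either list passed in limma without a clone term. The median over the 21 histone genes was 0.14. Lsm10, a part of the U7 particle that cuts histone mRNA, was at 0.41 ± 0.16 and Slbp at 0.32 ± 0.13, neither passing. How far the DNA replication genes and the histone genes depend on one another was not tested.

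The 9 members below the dim limit were Hist1h1a and Hist1h1t of class H1, Hist1h2ah of H2A, Hist1h2ba and Hist1h2bp of H2B, and Hist1h4a, Hist1h4b, Hist1h4h and Hist1h4m of H4. Hist1h1t and Hist1h2ba encode testis histones. When tested without the filter none passed in any of the 5 comparisons. Hist1h2bp came nearest, without EGF, at 4.78, 4.57 and 4.73 in Cic-/- against 4.07, 3.96, 4.03 and 3.95 in Cic+/+. The groups did not overlap and the change was 0.69 ± 0.19 (adjusted p = 0.186, limma). The groups overlapped in its brightest probeset, at 8.07, 8.32 and 8.09 against 8.06, 7.93, 8.30 and 8.53. The median value of Hist1h1a stayed under 4.40 in 13 of the 14 arrays. It reached 5.49 in clone 2 with EGF, the Cic+/+ array in which Hist1h1b was highest as well. The brightest probeset of Hist1h1a lay at 6.95 to 9.04 over the 14 arrays. With EGF it had 7.17, 7.68 and 7.56 in Cic-/- against 8.53, 9.04, 7.18 and 8.74 in Cic+/+, where the groups overlapped.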

How the data were processed

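The authors deposited a single table of log2 values, made by RMA per the submitters' processing notes, with no version or genome build given in the sources used here. Per the labels' protocols, biotin-labelled targets were prepared from total RNA with the Ambion WT Expression Kit. All 14 arrays were used. Symbols came from the platform annotation: of 269751 probesets, 233753 name 1 gene, 5106 several and 30892 none. A gene's value is the median of its single-gene probesets. The lowest 25% of genes by mean (under 4.40) were left out as dim, leaving 17364 of 23152.

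Group means were compared with limma 3.58.1 in R 4.3.3 (lmFit over 14 arrays, eBayes, 10 residual and 4.06 prior degrees of freedom, Benjamini-Hochberg adjustment over all genes), checked on simulated data. Probesets were fitted likewise. Values were read with the R package data.table (version 1.17.8) and with pandas 2.3.3 (Python 3.11.15), and figures drawn with matplotlib 3.10.9. The clone number pairs the arrays, since each clone is from 1 animal. Deviations of its 2 arrays from their group means correlated at 0.156 (clone 6) to 0.616 (clone 7). The main fit has no block.

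All 30 members were matched to RefSeq (GRCm38.p6) by synonym, and promoter sequences are RefSeq's. Full statistics are given for members that pass, the 2 highest and 2 lowest changes of each comparison, and the member with the highest mean level in each class, H3 having none. Other members are given as values. The shared probesets named singly were chosen after their values were seen. The members, lists and tests were chosen with earlier results of these data known. Alternatives were the mean or brightest probeset, shared probesets added, other dim filters, a trended robust prior, centring, quantile normalization, the clone as a block, random or fixed, only the groups compared, and leaving out each clone. Each probeset on its own and the shared probesets with copies counted once were chosen after seeing the data.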

Additional observations from a re-analysis of the deposited data

Results flagged for a closer look

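In Cic+/+ cells without EGF, the Hist1h2bb level of clone 4 was 8.25, far below the 9.25 to 9.37 of clones 1 to 3. This level is that of the middle probeset, and the others disagreed. The brightest was highest in clone 4, at 11.55 against 10.90 to 10.97. The dimmest was lowest there, at 6.43 against 6.93 to 7.04. The rule for this flag was a relative gap that chance exceeds in about 5% of groups of 4 arrays. That 5% is the limit of the rule, and not the chance of this gap. The EGF effect on Hist1h2bb in Cic+/+ was 0.83 with clone 4 and 0.58 without it. Clone 4 also stood apart in its Xist level, and the part of that difference was not tested.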

How the results depend on the processing

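Medians of the member changes and counts of passing members were recomputed under each alternative. With EGF the genotype median moved to -0.90 with the brightest probeset, -0.40 with shared probesets added and -0.38 with the lowest 50% of genes left out. The count of 1 became 0 with the brightest probeset, 0 with each probeset on its own (chosen after seeing the data) and 2 with only the groups compared. Without EGF the median moved to -0.47 with the brightest probeset and -0.42 with the lowest 50% left out, and the count of 0 became 1 with the mean of probesets. The median EGF effect in Cic+/+ was 0.35 and the median interaction -0.28 with the brightest probeset.

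Leaving out each clone in turn gave 0 to 2 passing members for the genotype with EGF and 0 in the other comparisons. The medians ran from -0.30 to -0.19 for the genotype with EGF, from -0.19 to -0.09 without EGF, from -0.04 to 0.09 for EGF in Cic-/-, from 0.08 to 0.16 for EGF in Cic+/+, and from -0.21 to -0.084, without clone 2, for the interaction.

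With the clone as a replicate block, the count for EGF in Cic+/+ was 3 as a random and 5 as a fixed term, against 0 without it. The pairing changed no other count or call of a member, and the consensus correlation was 0.348.

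Signs turned for members that did not pass. Hist1h1c changed by -0.062 with the mean and -0.48 with the brightest probeset for the genotype with EGF, by -0.20 with the brightest without EGF, by 0.26 and 0.28 for EGF in Cic+/+, and by -0.35 and -0.28 for the interaction. With shared probesets added, Hist2h4 without EGF was at -0.14, and Hist1h4k was at -0.42 for EGF in Cic-/- and -0.15 in Cic+/+. Hist1h2bb for EGF in Cic-/- was at 0.064 with the mean of probesets. With clones left out, EGF effects in Cic-/- ranged from -0.27 to 0.064 for Hist1h2bb, from -0.039 to 0.13 for Hist1h4k and from -0.53 to 0.11 for Hist1h1c, whose interaction ranged from -0.21 to 0.42. The cause was not tested. Signal limits the members under the dim limit other than Hist1h1a, Hist1h2bp and Hist1h4m. Each of those has a probeset at 6.95 or above in every array, and its median follows dimmer probesets.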
